A study of Mus musculus with 13 samples.

Results

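The 9 genes described here, Mbp, Mog, Mag, Cnp, Mobp, Opalin, Cldn11, Ermn and Cmtm5, encode proteins of the myelin sheath and of the mature oligodendrocyte. They were taken as a named list by symbol, and all 9 were found among the 56980 genes of the deposited count table. All 9 also passed the filter on low counts, which left 17549 genes for testing. The study sequenced RNA from the hippocampus of male App NL-G-F mice at 9 months of age, a model in which edited copies of the mouse App gene lead to amyloid plaques. It compared 7 samples labelled as knockouts, which carried floxed Lpcat3 together with a vav1-Cre transgene, with 6 controls labelled WT, which carried floxed Lpcat3 without Cre. Lpcat3 encodes an enzyme that places polyunsaturated fatty acids into membrane phospholipids, and the vav1 promoter drives the Cre in the blood-forming lineage. The mice of both groups had been gavaged with tamoxifen (20 mg/ml, 0.2 mg/g body weight), and the labels do not say whether the deletion depended on it. Oligodendrocytes do not descend from that lineage.

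Myelin is the stack of membrane that an oligodendrocyte wraps around an axon. Mbp and Mobp proteins lie on its cytoplasmic faces and hold the layers together, Cnp keeps cytoplasm-filled channels open within it, Cldn11 seals it with tight junctions, and Mag and Mog stand at its inner and outer surfaces. Opalin, Ermn and Cmtm5 are a membrane glycoprotein, an actin-binding protein and a small membrane-spanning protein that appear as oligodendrocytes mature. In bulk tissue, fewer oligodendrocytes and less of a transcript in each of them cannot be told apart.

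The libraries held 12159941 to 18322559 counts each, and the labels do not state that each came from a separate animal, so p-values describe only how these samples vary, which may be technical. Lpcat3, the targeted gene, averaged 27.6 ± 2.22 CPM (counts scaled to a common library total; SD, n = 6) among controls and 20.2 ± 2.83 CPM among knockouts (SD, n = 7). Its highest knockout library lay below its lowest control library, and its log2 difference was -0.45 (SE 0.088, adjusted p = 0.0962 in edgeR). The sample numbers in the labels fall into 3 runs whose meaning is not given. Numbers 3283 to 3288 hold 5 knockouts and 1 control, 3296 to 3300 hold 1 knockout and 3 controls, and 4301 to 4307 hold 1 knockout and 2 controls. Libraries also differed in RNA from neighbouring structures. Summed choroid plexus markers ran from 61.6 to 2880 CPM over the 13 libraries, and summed septal markers reached 43.8 CPM in controls and 9.81 CPM in knockouts.

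Promoter windows, the nearest upstream DNA, are shown for 5 of the genes, 4 that hold a searched motif and Mog, which holds none. The part of these sequences in the levels of the genes was not tested. They are from RefSeq on GRCm38.p6, which had windows for 8 of the 9 genes, and motifs were sought in the 250 bases before each transcription start. The printed windows of Mag, Opalin and Mog end at the base before the start, and those of Cnp and Mobp end 35 bases earlier, where a GENCODE M21 exon begins. Capitals mark ACAAAG (bound by Sox factors) or CTGGCAC (bound by Myrf), or their reverse complements CTTTGT and GTGCCAG, searched on both strands. The windows are for Mag (chr7:30914923-30915172, minus strand), Cnp (chr11:100574689-100574903, plus strand), Mobp (chr9:120149492-120149706, plus strand), Opalin (chr19:41077114-41077363, minus strand) and Mog (chr17:37023399-37023648, minus strand), written 5′ to 3′.
Mag: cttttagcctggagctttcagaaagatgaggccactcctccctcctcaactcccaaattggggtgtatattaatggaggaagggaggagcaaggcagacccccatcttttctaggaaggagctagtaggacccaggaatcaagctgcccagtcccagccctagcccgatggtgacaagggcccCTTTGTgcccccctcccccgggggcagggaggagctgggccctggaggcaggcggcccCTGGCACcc
Cnp: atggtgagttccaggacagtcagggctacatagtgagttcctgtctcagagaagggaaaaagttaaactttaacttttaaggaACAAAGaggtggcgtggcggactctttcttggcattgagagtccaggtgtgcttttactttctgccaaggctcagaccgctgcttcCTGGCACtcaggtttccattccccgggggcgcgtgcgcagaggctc
Mobp: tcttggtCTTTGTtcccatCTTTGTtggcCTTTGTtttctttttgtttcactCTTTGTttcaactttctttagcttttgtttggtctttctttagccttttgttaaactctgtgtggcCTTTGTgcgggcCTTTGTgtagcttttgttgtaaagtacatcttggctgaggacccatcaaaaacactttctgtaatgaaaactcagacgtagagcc
Opalin: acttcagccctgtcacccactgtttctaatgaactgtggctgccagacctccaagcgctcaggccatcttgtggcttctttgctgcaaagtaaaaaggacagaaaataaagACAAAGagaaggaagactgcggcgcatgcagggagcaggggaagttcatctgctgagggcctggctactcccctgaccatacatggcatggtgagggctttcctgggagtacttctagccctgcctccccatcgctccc
Mog: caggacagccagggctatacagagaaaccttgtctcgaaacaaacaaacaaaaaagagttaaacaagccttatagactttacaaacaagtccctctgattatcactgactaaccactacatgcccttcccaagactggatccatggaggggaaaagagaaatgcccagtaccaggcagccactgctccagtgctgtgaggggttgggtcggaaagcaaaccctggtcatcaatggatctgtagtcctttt
The Sox motif occurred in 4 of the 8 genes with a window (Mag, Cnp, Mobp and Opalin), against 18.6% of the 27025 genes in the RefSeq promoter table. Mobp held 6 copies, between 243 and 115 bases before its start. The Myrf motif occurred in 2 of the 8, Mag and Cnp, against 4.83% of genes, at 81 to 75 bases before the start in Cnp. In Mag it lay 9 to 3 bases before the start of the printed window, whose first transcribed bases are in no GENCODE M21 transcript of Mag, and 68 to 62 bases before another RefSeq start, whose first bases are in one. The E-box CAGCTG occurred in 1 gene, Cmtm5, against 14.7% of genes, and TATAAA in none of the 8, against 14.3%. In Cmtm5 the match lay 23 to 18 bases before a RefSeq start. A GENCODE M21 exon of Cmtm5 begins 236 bases before that start, so the match is not upstream of all annotated exons. Each match is a description of the letters in the window.

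None of the 9 genes passed an adjusted p of 0.05 between knockout and control in edgeR's quasi-likelihood test, where 0.0228% of all genes tested were called. All 9 log2 differences were below 0, as were 51.3% of those of all genes tested, and their median was -0.10, against -0.004 over all genes. The genes varied together across libraries, so the shared sign is not 9 separate observations. An unadjusted p under 0.05 with a lower value in the knockout was found for 3 of the 9, Cmtm5, Opalin and Cldn11, and for 7.25% of all genes.

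**Figure D1:**
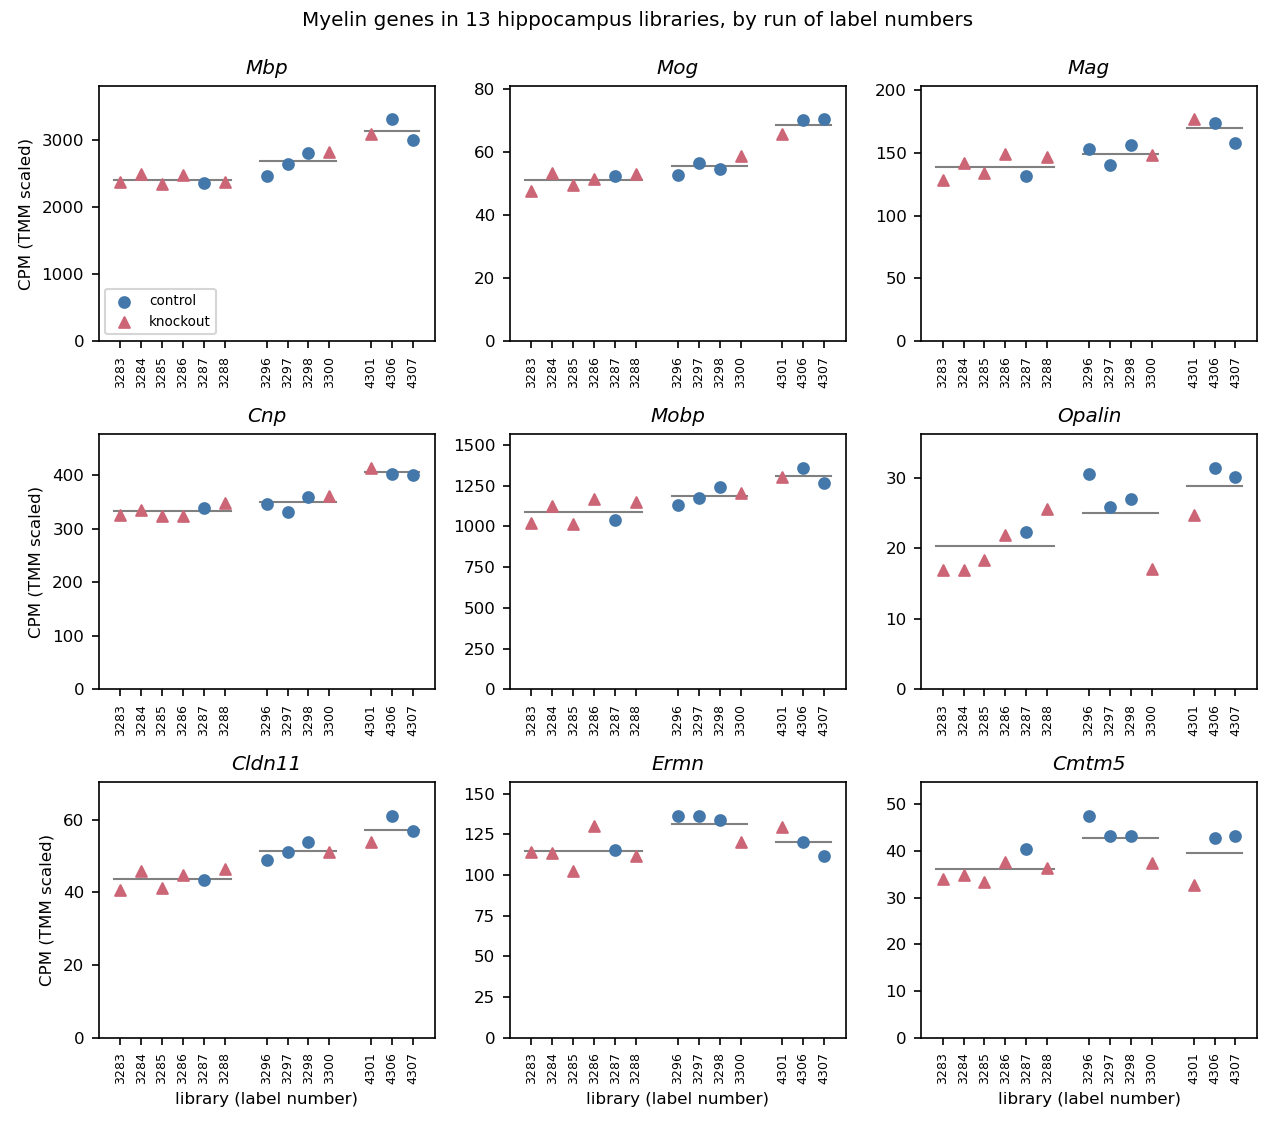
Each panel plots 1 gene, with the 13 libraries on the x axis by label number and CPM on the y axis. Circles are controls, triangles are knockouts, and each grey line is the mean of a run. Cmtm5 alone has every knockout below every control, and Mbp, Mog, Mag, Cnp, Mobp and Cldn11 are highest in the run numbered 4301 to 4307.

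Cmtm5 (ENSMUSG00000040759, chromosome 14) had the lowest p of the 9 and the fifth lowest of all genes tested. Its controls read 40.4, 47.5, 43.1, 43.3, 42.8 and 43.3 CPM, and its knockouts 34.0, 34.9, 33.4, 37.7, 36.3, 37.4 and 32.8 CPM. It was the one gene of the 9 whose groups did not overlap, with every knockout below every control, a separation in that direction that 0.274% of all genes showed. Control and knockout means were 43.4 ± 2.31 (SD, n = 6) and 35.2 ± 1.96 CPM (SD, n = 7), a log2 difference of -0.30 (SE 0.053, unadjusted p = 2.1e-05, adjusted p = 0.0749 in edgeR). An exact two-sided permutation test over all 1716 assignments of libraries to groups gave p = 5.8e-04, the smallest it can give. Behind these values lie 413 to 700 counts per library.

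The Cmtm5 difference had the same sign in each run of label numbers. It was -0.20 in the run numbered 3283 to 3288, -0.25 in 3296 to 3300 and -0.39 in 4301 to 4307, on the log2 scale. On one side these values rest on control 3287 alone, knockout 3300 alone and knockout 4301 alone, in that order. When libraries were exchanged only within runs, the exact two-sided permutation p was 0.014, the smallest that the 72 relabellings allow. With run as a term in edgeR the difference was -0.27 (SE 0.061, unadjusted p = 3.7e-04, adjusted p = 0.405), a fit that called 0.0171% of all genes. DESeq2 called Cmtm5 (adjusted p = 0.00155), as did edgeR without a filter on low counts (0.0322) and edgeR without control 3287 (0.0280), and these fits called 1.01%, 0.172% and 0.451% of all genes. Over all the alternative fits its adjusted p ran from 0.00155 to 0.405 and its log2 difference from -0.32 to -0.18, the smaller when trends on exon length and GC content were removed.

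Opalin (ENSMUSG00000050121, chromosome 19) had the largest fold difference of the 9. Its controls read 22.3, 30.5, 25.8, 26.9, 31.4 and 30.1 CPM, and its knockouts 16.9, 16.9, 18.4, 21.8, 25.6, 17.0 and 24.7 CPM. The groups overlapped only through control 3287 at 22.3 CPM, which lay below knockouts 3288 and 4301, while the other 5 controls lay above every knockout. The means were 27.9 ± 3.49 CPM (SD, n = 6) and 20.2 ± 3.82 CPM (SD, n = 7), a log2 difference of -0.46 (SE 0.113, unadjusted p = 6.3e-04, adjusted p = 0.131 in edgeR). The exact permutation p was 0.00758 over all assignments and 0.028 within runs. Differences within the 3 runs, in the order of their numbers, were -0.18, -0.70 and -0.31, each from 1 library on one side. Opalin has the thinnest counts of the 9, 205 to 444 per library. It was called by DESeq2 (adjusted p = 0.0131) and without a count filter (0.0322), and over all the alternative fits its adjusted p ran from 0.0131 to 0.499 and its log2 difference from -0.53 to -0.39.

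Summed markers of some other structures and cell types also reached lower values in the knockout libraries. Summed thalamic markers ran from 100.5 to 154.8 CPM in controls and from 87.6 to 111.6 CPM in knockouts, and summed striatal markers from 46.6 to 66.7 CPM and from 38.6 to 50.5 CPM. In the 6-gene septal list the sums were 5.64 to 43.8 CPM (median 11.7) and 4.14 to 9.81 CPM (median 6.69). Slc18a3 and Lhx8 were each at 0 in at least 1 library of each group. Interneuron markers gave 598 to 856 CPM and 586 to 673 CPM, and astrocyte markers 4097 to 4364 CPM and 3770 to 4236 CPM. In each of these lists the ranges of the groups overlapped, and no gene tested passed the adjusted threshold in edgeR. Lists of hippocampal neuron, choroid plexus and microglial markers had positive median log2 differences (0.11, 0.07 and 0.016). In each of these lists both the lowest and the highest sum were in a knockout library. The choroid plexus sums had a median of 1025 CPM in controls and 134 CPM in knockouts. With run as a term the median log2 difference of that list was -1.17. Ependymal markers had a median of -0.26, with sums of 20.45 to 31.64 CPM in controls and 18.28 to 32.15 CPM in knockouts. The mitochondrial share of counts was 1.64 to 1.94% in controls and 1.45 to 1.73% in knockouts. Leaving out any 1 library left the log2 difference of Cmtm5 between -0.32 and -0.27 and that of Opalin between -0.53 and -0.42. The part of these other markers in the Cmtm5 and Opalin values was not tested.

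Cldn11 (ENSMUSG00000037625, chromosome 3), the tight junction protein, read 43.3, 48.9, 51.1, 53.8, 61.0 and 56.8 CPM in controls and 40.5, 45.7, 41.1, 44.7, 46.3, 51.2 and 53.8 CPM in knockouts. The groups overlapped over most of their range. The means were 52.5 ± 6.20 CPM (SD, n = 6) and 46.2 ± 4.89 CPM (SD, n = 7), a log2 difference of -0.18 (SE 0.079, edgeR adjusted p = 0.344) with an exact permutation p of 0.0653. With run as a term the difference was -0.04 (SE 0.060), and within runs the exact p was 0.514.

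The structural genes of compact myelin differed by less than the spread between libraries. Mbp (ENSMUSG00000041607, chromosome 18) read 2365, 2470, 2645, 2809, 3313 and 3005 CPM in controls and 2377, 2498, 2352, 2487, 2383, 2830 and 3088 CPM in knockouts. Its log2 difference was -0.10 (SE 0.080, edgeR adjusted p = 0.627), and with run as a term it was 0.04 (SE 0.052). Mobp (ENSMUSG00000032517, chromosome 9) read 1041 to 1362 CPM in controls (median 1208) and 1013 to 1305 CPM in knockouts (median 1150). Its log2 difference was -0.08 (SE 0.066, edgeR adjusted p = 0.676), and 0.03 (SE 0.056) with run as a term. In both genes the groups overlapped over nearly their whole range, and the sign depended on the run term.

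Cnp, Mag and Mog, of the cytoplasmic channels and the sheath's 2 surfaces, also differed by less than the spread between libraries. Cnp (ENSMUSG00000006782, chromosome 11) averaged 363 ± 31.1 and 347 ± 32.7 CPM in controls and knockouts (SD, n = 6 and 7), a log2 difference of -0.06 (SE 0.063, adjusted p = 0.727 in edgeR). Cnp lies across Dnajc7 on the other strand, and the strand setting of the counting is not given in the sources used here, so reads of the overlap cannot be told apart. Mag (ENSMUSG00000036634, chromosome 7) averaged 152 ± 14.7 and 146 ± 15.6 CPM (SD, n = 6 and 7), a log2 difference of -0.06 (SE 0.070, adjusted p = 0.790 in edgeR). Mog (ENSMUSG00000076439, chromosome 17) averaged 59.5 ± 8.52 and 54.3 ± 6.11 CPM (SD, n = 6 and 7), a log2 difference of -0.13 (SE 0.086, adjusted p = 0.545 in edgeR). With run as a term the 3 differences became 0.02, 0.05 and -0.01. Ermn (ENSMUSG00000026830, chromosome 2), the actin-binding protein, averaged 125.6 ± 11.1 and 117 ± 10.02 CPM (SD, n = 6 and 7), a log2 difference of -0.10 (SE 0.063, adjusted p = 0.549 in edgeR) that was -0.01 with run as a term.

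**Figure D2:**
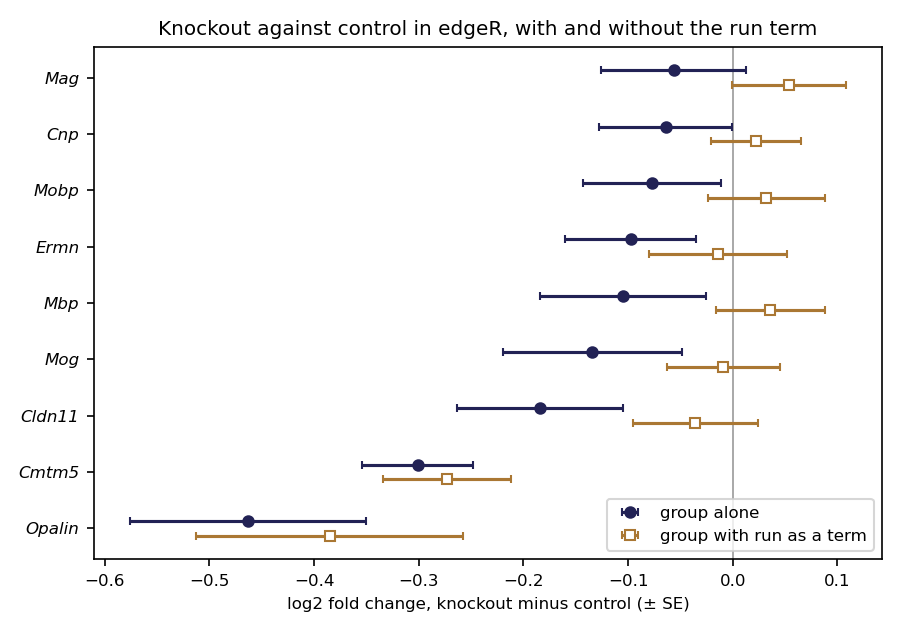
Points are the log2 fold change of knockout against control in edgeR for each of the 9 genes, on the x axis, with bars of 1 SE. Filled circles are from the fit with group alone and open squares from the fit with run as a term. With the run term 7 genes lie within 0.06 of 0, while Cmtm5 stays at -0.27 and Opalin at -0.39.

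Per kilobase of exon, the levels spanned from 314.5 CPM per kb for Mbp to 8.06 CPM per kb for Opalin, as means over the 13 libraries. Mobp (171) and Cnp (97.4) followed Mbp. Mag (36.6), Ermn (33.3), Mog (33.3) and Cmtm5 (32.2) lay close together, and Cldn11 (26.3) lay below them. These lengths come from the GENCODE M21 annotation, in which Mobp shares bases with the little-counted Gm38642 and Ermn with Galnt5 on the other strand.

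The levels of 6 of the 9 genes followed the runs of label numbers. Mbp, Mog, Mag, Cnp, Mobp and Cldn11 each had all 3 libraries of the run 4301 to 4307, 1 knockout and 2 controls, above the other 10 libraries, a pattern that 1.2% of all genes showed. For Cldn11 the margin was narrow, 53.79 against 53.78 CPM. Mbp ran from 2352 to 2498 CPM in 3283 to 3288, from 2470 to 2830 CPM in 3296 to 3300 and from 3005 to 3313 CPM in 4301 to 4307. Mog ran from 47.6 to 53.4, from 52.9 to 58.7 and from 65.6 to 70.5 CPM in the same order. Opalin, Ermn and Cmtm5 did not separate in this way, and Cmtm5 held its lowest library, knockout 4301 at 32.8 CPM, in the run where Mbp was highest. The summed share of the 9 genes was 0.409 to 0.436% of counts in 3283 to 3288, 0.447 to 0.488% in 3296 to 3300 and 0.509 to 0.566% in 4301 to 4307.

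The test of both run terms, in an edgeR fit with group and run, called none of the 9 genes and 0.0% of all genes. In limma-voom 1 of the 9, Mbp, was called (adjusted p = 0.0341), along with 3 other genes, 0.0228% of all. At an unadjusted p under 0.05 the run terms held for 6 of the 9 genes and 12.7% of all genes. Mog, Mbp and Cnp ranked 2, 3 and 9 among all genes tested in edgeR, with adjusted p of 0.0922, 0.0922 and 0.0982. As a single contrast, added after the values were seen, 4301 to 4307 exceeded 3283 to 3288 by 0.42 in Mog (SE 0.063, adjusted p = 0.0321), 0.40 in Mbp (SE 0.061, 0.0321) and 0.30 in Cnp (SE 0.050, 0.0361) on the log2 scale in edgeR. These 3 are among the 15 genes, 0.0855% of all, that this contrast called. Cldn11 (0.37), Mag (0.32), Opalin (0.30) and Mobp (0.29) differed by similar amounts with adjusted p between 0.0542 and 0.368, and Ermn (0.06) and Cmtm5 (-0.01) by little. The median over the 9 genes was 0.30, against -0.005 over all genes tested. For 3296 to 3300 the median over the 9 genes was 0.14 above 3283 to 3288, and none of the 9 was called (0.0% of all genes).

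**Figure D3:**
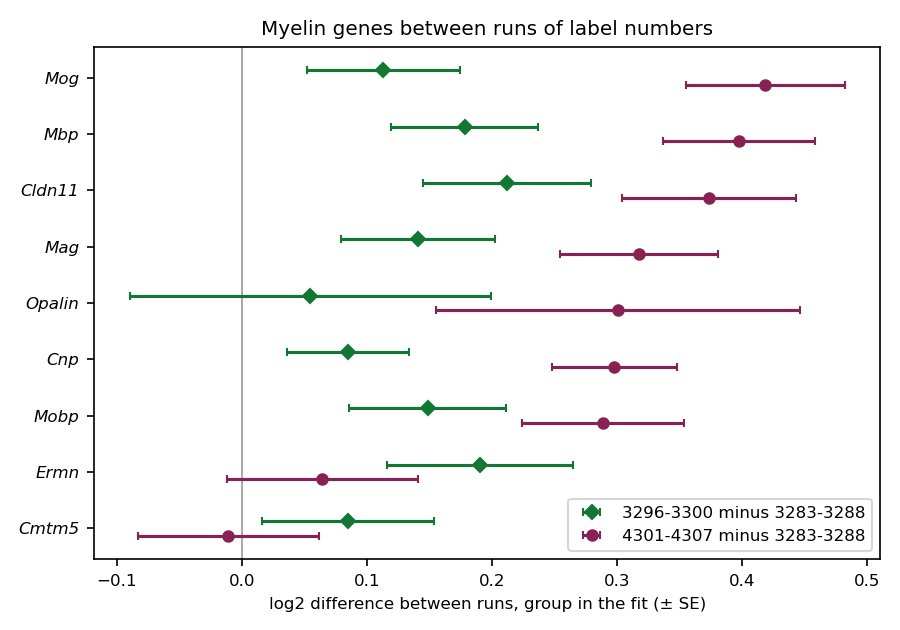
Points are log2 differences between runs of label numbers for each gene, on the x axis, from an edgeR fit that also holds group, with bars of 1 SE. Circles compare 4301 to 4307 with 3283 to 3288 and diamonds compare 3296 to 3300 with 3283 to 3288. Mog and Mbp stand at 0.42 and 0.40, while Cmtm5 stands at -0.01.

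Without the group term the run test called 4 of the 9 genes, Mbp, Mog, Cnp and Cldn11, and 0.194% of all genes. With group and run in the fit, leaving out knockout 3300 gave 3 calls (Mbp, Mog and Cnp) and 0.241% of all genes, and leaving out knockout 4301 gave 2 (Mbp and Mog) and 0.298%. Leaving out any of the other 11 libraries called none of the 9, with the adjusted p of Mbp reaching 0.294. The groups share the runs unevenly, so for any gene part of the difference between groups cannot be told apart from a difference between runs. Microglial markers also differed by run, with sums of 585 to 671 CPM in 3283 to 3288 and 688 to 713 CPM in 4301 to 4307. Mitochondrial shares overlapped between those runs, at 1.49 to 1.73% and 1.45 to 1.76%. The part of these in the run differences was not tested.

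Across the 13 libraries the 9 genes varied together to unequal degrees. All 36 pairs had a positive Pearson correlation of log2 CPM, with a median of 0.633 and a range from 0.118 to 0.949. Of the 36, 19 passed a Benjamini-Hochberg adjusted permutation p of 0.05 (18 by Spearman). The permutations exchanged libraries freely across runs and groups, so these p-values also take in shared differences between runs and between groups. Mobp and Cldn11 were the closest pair (r = 0.949, rho = 0.951, permutation p = 1e-05, the smallest that the resamples give, adjusted p = 7.2e-05). Mag and Mobp (r = 0.936) and Mbp and Cldn11 (r = 0.931) followed. The 15 pairs among Mbp, Mog, Mag, Cnp, Mobp and Cldn11, grouped after their values were seen, lay between 0.812 and 0.949. They lay between 0.696 and 0.914 without the 2 libraries farthest from the median of the first-listed gene of each pair.

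Ermn and Cmtm5 followed the others loosely. The 8 pairs with Ermn ran from 0.118 to 0.519, and none passed. Of the 8 pairs with Cmtm5, which ran from 0.169 to 0.736, only the pair with Opalin passed (r = 0.736, rho = 0.731, permutation p = 0.00564, adjusted p = 0.0127). That pair had r = 0.663 without the 2 libraries farthest from the median of Opalin. Its r was 0.776 after centring by run, 0.519 in residuals of group and run, and 0.234 after centring by group.

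The correlations were smaller once the runs were taken out. After centring by run the median over all 36 pairs was 0.326, and in residuals of a fit with group and run it was 0.385. Among the 15 closer pairs these medians were 0.478 and 0.518, with all 15 still positive and Mobp with Cldn11 at 0.839 and 0.925. Within the 6 libraries of 3283 to 3288 alone, the 15 pairs ran from -0.10 to 0.960 with a median of 0.686, Mag and Mobp being the highest and Mbp and Cnp the lowest. The other runs hold 4 and 3 libraries, too few for a correlation.

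**Figure D4:**
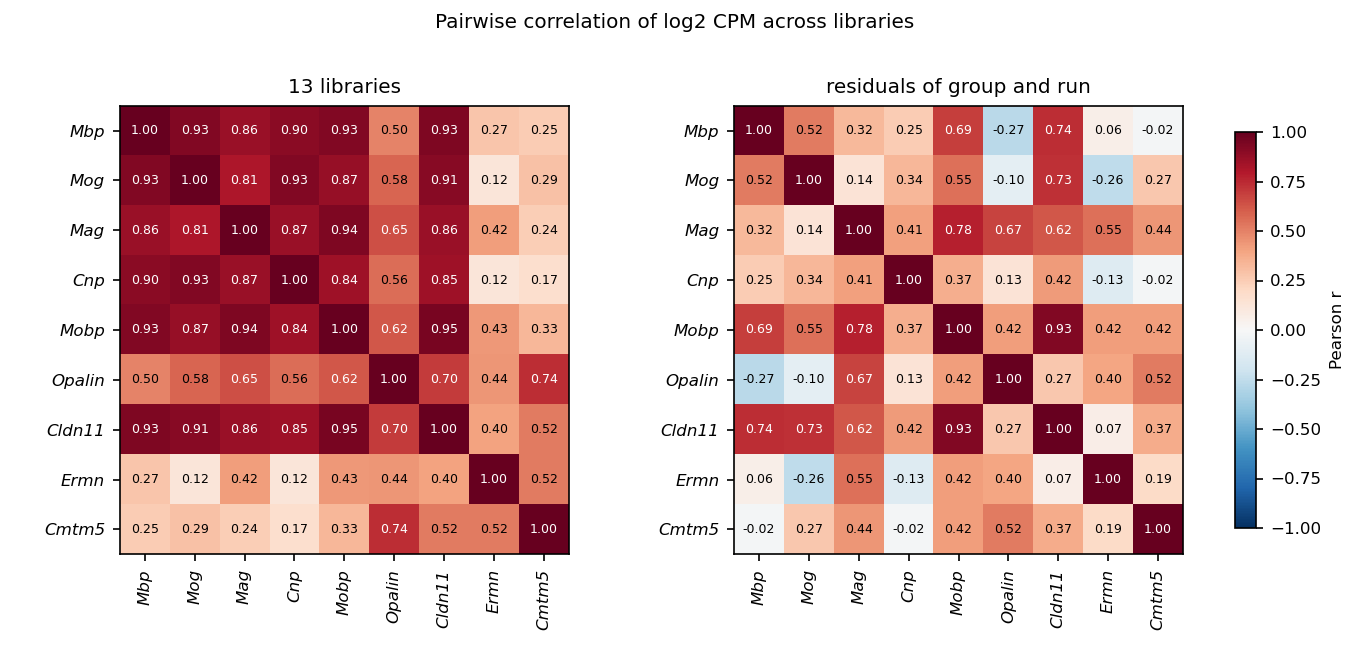
Each cell is the Pearson r of log2 CPM between a pair of the 9 genes over 13 libraries, from the values as they are (left) and from residuals of a fit with group and run (right), with the colour scale from -1 to 1. The 6 genes Mbp, Mog, Mag, Cnp, Mobp and Cldn11 share values from 0.812 to 0.949 on the left, and on the right the pair of Mobp and Cldn11 remains at 0.925.

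Each of the 8 other genes was also set against Mbp in the same library, a comparison added after the values were seen. The log2 ratio of Opalin to Mbp averaged -6.63 ± 0.147 over the controls (SD, n = 6) and -7.00 ± 0.270 over the knockouts (SD, n = 7), a difference of -0.37 (exact permutation p = 0.0152, adjusted p = 0.10). Cldn11 against Mbp differed by -0.08 (exact permutation p = 0.0251, adjusted p = 0.10). In the ratios of Opalin and of Cldn11 alike, 6 of the 7 knockouts lay below every control. The share of all genes with such a ratio was not worked out. Within runs the exact permutation p was 0.028 for Opalin (adjusted p = 0.111) and 0.069 for Cldn11 (adjusted p = 0.185). Cmtm5 against Mbp differed by -0.20 (exact permutation p = 0.081, adjusted p = 0.216), and its exact p within runs was 0.014 (adjusted p = 0.111). None of the 8 ratios passed after adjustment, and those of Mog, Mag, Cnp, Mobp and Ermn differed by between -0.03 and 0.04.

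The genes whose values most resembled the mean of the 9, by Pearson r after centring by group over 13 libraries, were sought among the 12248 genes with at least 5 CPM on average. Bcas1, of newly formed oligodendrocytes, came first at 0.944, followed by Swsap1 (0.927), Qdpr (0.901), Evi2a (0.895) and Gatm (0.884). The myelin membrane protein Mal reached 0.878, and Zfyve21 (0.875), Mecr (0.870) and Clec2l (0.867) were also among the 10 nearest. After centring by run in place of group, the r of these 10 genes fell to between 0.0845 (Gatm) and 0.512 (Swsap1), with Bcas1 at 0.281. In residuals of group and run it was higher, between 0.461 (Zfyve21) and 0.743 (Mal), with Bcas1 at 0.725 and Gatm at 0.533. An r of 0.8 or more was reached by 53 genes, 0.433% of those examined, and in residuals of group and run by 31 genes. Of the 9 themselves, Mobp (0.973), Mag (0.973) and Cldn11 (0.953) were nearest to their mean, while Ermn (0.362) and Cmtm5 (0.180) were far from it. Each of the 9 is part of that mean, which by construction raises its r above that of an outside gene.

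A list of 33 other genes of myelin and mature oligodendrocytes gave signs like those of the 9. None of the 33 passed the adjusted threshold in edgeR, and the median was -0.13. A negative log2 difference was found for 29 of the 33, and for 51.3% of all genes tested. Qdpr, Evi2a and Mal, among the 33, varied with the mean of the 9, so the shared sign is not 33 separate observations. At an unadjusted p under 0.05, 6 of the 33 were lower in the knockout, against 7.25% of all genes, and 1 was higher. The smallest p-values belonged to Gjc3, a gap junction protein, at -0.21 (SE 0.064, adjusted p = 0.198), the small heat shock protein Cryab at -0.25 (SE 0.080, adjusted p = 0.225), Tmem88b at -0.15 (adjusted p = 0.280) and the protease Adamts4 at -0.17 (adjusted p = 0.312). With run as a term 17 of the 33 were negative with a median of -0.01. In the run 4301 to 4307, 29 of the 33 were higher than in 3283 to 3288. Their median was 0.17, against -0.005 over all genes tested. An unadjusted p under 0.05 for the run terms in edgeR was found for 14 of the 33 and for 12.7% of all genes.

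Earlier stages of the lineage and the transcription factors that drive it gave no call. None of 10 transcription factors passed at either threshold (median -0.04), with Olig1 at -0.08, Myrf at -0.09 and St18 at 0.17 (SE 0.083, adjusted p = 0.411 in edgeR). Of 8 precursor genes 7 were negative (median -0.08), as were 51.3% of all genes tested. The proteoglycan Cspg4 was at -0.18 (SE 0.085, adjusted p = 0.394 in edgeR) and the growth factor receptor Pdgfra at -0.10. Of 8 genes of committed and newly formed oligodendrocytes 4 were negative (median 0.02). Enpp6, a choline phosphodiesterase of newly formed cells, averaged 10.6 ± 0.877 CPM over the controls (SD, n = 6) and 8.63 ± 1.05 CPM over the knockouts (SD, n = 7), a log2 difference of -0.29 (SE 0.095, adjusted p = 0.225 in edgeR).

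**Figure D5:**
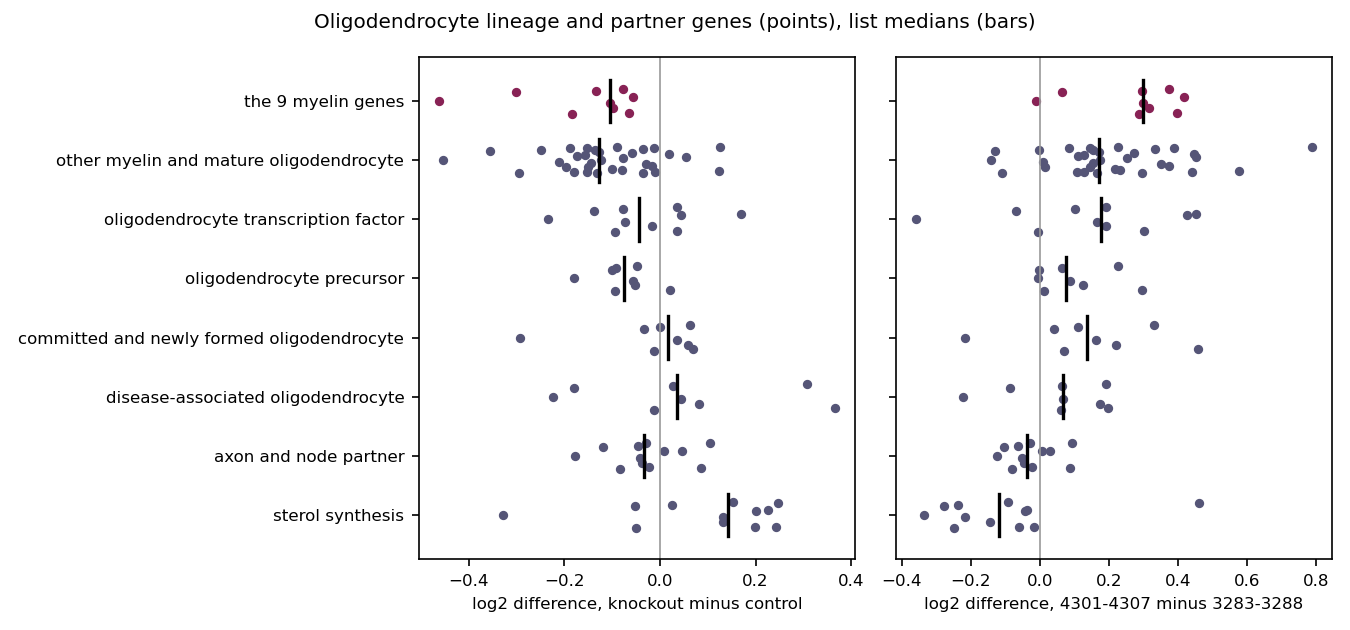
Points are genes and black bars are list medians, for the 9 genes and 7 related lists. The left panel plots the log2 difference of knockout minus control, and the right panel that of libraries 4301 to 4307 minus 3283 to 3288. The myelin lists lie mostly below 0 on the left and mostly above 0 on the right, and most sterol synthesis genes the other way round.

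Genes linked to stressed oligodendrocytes and to the axon had both signs. Of 8 disease-associated oligodendrocyte genes none passed, with the antigen-presenting H2-D1 at 0.37 (SE 0.140, adjusted p = 0.287) and H2-K1 at 0.31 (SE 0.123, adjusted p = 0.313) and the tetraspanin Cd9 at -0.18 (SE 0.074, adjusted p = 0.324) in edgeR. These genes are also expressed by microglia. Of 12 axon and node genes none passed, with neurofascin (Nfasc) at -0.12 (adjusted p = 0.302), the neurofilament Nefl at 0.10 (adjusted p = 0.318) and the axonal adhesion molecule Cntn2 at -0.18 (adjusted p = 0.365) in edgeR.

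Sterol synthesis, which supplies the cholesterol of myelin, was mostly of the opposite sign to the myelin genes. None of 12 genes passed, and the median was 0.14. Of the 12, 9 were positive, while 51.3% of all genes tested were below 0. Squalene epoxidase (Sqle) was at 0.23 (SE 0.078, adjusted p = 0.252) and Hmgcs1, which starts the pathway, at 0.20 (SE 0.071, adjusted p = 0.259) in edgeR. Fdps, named after its value was seen, was at -0.33 (SE 0.150, adjusted p = 0.377), the largest of the 12 in size, at a level of 4.57 CPM in controls. With run as a term 5 of the 12 were negative and the median was 0.04. For the run terms in edgeR, 8 of the 12 had an unadjusted p under 0.05, against 12.7% of all genes. In 4301 to 4307, 11 of the 12 lay lower than in 3283 to 3288, where the median difference over all genes tested was -0.005. Whether the 12 varied together across libraries was not tested.

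The labelled tissue was checked against markers of myelin from outside the brain. Of 5 Schwann cell genes, Pmp2 was at 0 in every library, and only Cdh19 passed the count filter, at 15.5 to 24.2 CPM in controls and 16.1 to 20.5 CPM in knockouts. Hippocampal neuron markers summed to 4036 to 4641 CPM in controls and 3969 to 4812 CPM in knockouts.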

How the data were processed

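RNA from 13 hippocampi had been turned into SMART-Seq libraries, per the labels' protocols, and the deposited file is a table of raw counts per Ensembl gene and library. The build was GRCm39, with featureCounts 2.0.3, STAR 2.7.10a, DESeq2 1.36.0 and R 4.2.0 listed as tools, per the submitters' processing notes. Not given in the sources used here are the annotation release, the strand setting and the handling of multi-mapping reads. Symbols were matched for 52073 genes, holding 99.7% of counts. Coordinates on GRCm39 were not used here.

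The 9 genes and all lists were chosen with earlier results of these data known. Counts were tested with edgeR 4.0.16 (quasi-likelihood F-test, TMM factors, filterByExpr) in R 4.3.3. P-values were adjusted by Benjamini-Hochberg across the 17549 genes tested, and 0.05 was the threshold. CPM are TMM-scaled, and log2 CPM use a prior count of 2. Alternatives were DESeq2 1.42.0, limma 3.58.1 (voom, and a trend fit after lowess trends of span 0.4 on exon length and GC content), other scaling factors, no filter or a mean count of at least 50, run of label numbers as a term, and leaving out libraries. Exact tests used all 1716 assignments of libraries to groups or 72 relabellings within runs, and correlations 100000 permutations. The fits were tested on simulated data. The 36 pairs of libraries within a group differed beyond sampling noise (chi-square per gene 3.10 to 20.9), so all 13 were kept.

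Genes were named with values if they were among the 9, among the 10 most alike, or among the 4 smallest p-values of a lineage list, and other cell markers as sums. Mal falls under likeness, and Pmp2, Cdh19 and the septal genes at 0 were named after their values were seen. Some genes that this rule would name are not reported here.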

Additional observations from a re-analysis of the deposited data

Results flagged for a closer look

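Of the 18 sets of values formed by the 9 genes and the 2 groups, 1 held a library far from the rest of its group by Dixon's criterion at 95%. Cnp in knockout 4301 read 414 CPM, while the other 6 knockouts lay between 323 and 361 CPM. The controls of the same run of label numbers read 402 and 400 CPM. This criterion flags about 1 in 20 groups by chance.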

How the results depend on the processing

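Of the comparison of knockout with control, the number of the 9 genes past the threshold was 0 in edgeR, 2 with DESeq2 and 2 without a filter on low counts (Opalin and Cmtm5 in both), and between 0 and 1 when each library was left out in turn, the 1 being Cmtm5 without control 3287. Their median log2 difference was -0.10 in edgeR and lay between -0.15 and -0.01 over 22 alternatives. None of these moved from the edgeR value by more than 0.129, the spread of the median log2 CPM between controls. With run as a term the signs turned for Mbp (0.036), Mag (0.054), Cnp (0.022) and Mobp (0.032), and none of these was called either way. The number of the 9 called over the run terms was 0, and it was 4 without the group term, 1 with limma-voom (Mbp) and between 0 and 3 when each library was left out. The median pairwise r of 0.633 became 0.326 after centring by run and 0.385 in residuals of group and run, the last added after the data were seen, and lay between 0.552 and 0.715 when each library was left out. Other oligodendrocyte lineage genes gave 0 calls in all 16 alternatives, among them DESeq2, and in edgeR. Apart from the settings' own construction, the cause of these changes was not tested. No paired analysis was possible because the labels of the 2 groups share no replicate number. The runs hold as few as 1 library of a group, and Opalin, with 205 to 444 counts per library, is the gene whose counting error weighs most.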
